A study of Mus musculus with 2 samples.

Results

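The nuclear-encoded subunits of the mitochondrial respiratory chain were followed in the cells of the stromal vascular fraction (SVF) of mouse gonadal white adipose tissue (gWAT). Members were taken by gene symbol (Nduf followed by a, b, c, s or v and a number, Uqcr, Cox4 to Cox8, Sdha to Sdhd, Atp5, Cyc1 and Cycs), which gave 86 of the 28692 genes in the count tables. Of these, 35 were counted with complex I, 4 with complex II, 9 with complex III, 20 with complex IV and 17 with complex V, and Cycs stood alone. Ndufa4 and Ndufa4l2 were placed in complex IV, where the Ndufa4 protein is known to sit despite its name. The symbol rule also took in genes that are not core subunits, such as the assembly-related Atp5sl (Dmac2 in newer annotation), and isoforms known from other tissues. Unique molecular identifiers (UMIs), which count captured transcript 3′ ends, were found for 85 members in the control library, and 84 members had at least 10 UMIs over both libraries. Cox7b2 had none in either, and Cox8c had 1 control UMI and 0 KO UMIs.

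There was 1 library per genotype, each from male C57BL/6 mice labelled as 13 weeks of age. The KO library came from Adipo-Pgam1 KO mice, which carry a floxed Pgam1 gene and an Adipoq-driven Cre. The control library came from littermates, called wildtype in the labels and described in the methods as Pgam1 flox/flox without Cre. The number of mice pooled in each library is not given in the sources used here. The Adipoq promoter drives Cre in adipocytes, and mature adipocytes float off when the SVF is pelleted. With 1 library per genotype no difference between genotypes could be tested, and all intervals given are 95% intervals that cover counting error alone.

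The respiratory chain passes electrons from NADH (complex I) and succinate (complex II) through complex III and the mobile carrier cytochrome c to oxygen at complex IV. The proton gradient built on the way is used by complex V, the ATP synthase. Most subunits are encoded in the nucleus and imported, whereas a small set of core subunits of complexes I, III, IV and V is encoded in mitochondrial DNA. In adipose tissue the chain is best known for its abundance in brown and beige adipocytes. Several subunits of complex IV exist as isoforms that differ between tissues or with oxygen supply.

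The genes of the members lie on 19 chromosomes (GRCm38). Promoter sequence from RefSeq (GRCm38.p6; 250 bases before to 50 after the start) was matched by symbol for 67 of the 86 members. Binding motifs of regulators known for this gene family were counted on both strands. The nuclear respiratory factor 1 motif (GCGCANGCG) was found in 21 of the 67 members, or 31.3%, against 7.03% of all 27025 genes with a promoter window. The ETS family motif (CCGGAAG) was found in 16 members, 23.9% against 9.93%. The CREB motif (TGACGTCA) was found in 5 members, 7.46% against 2.03%, and the YY1 motif (AAGATGG) in 10 members, 14.9% against 7.28%. No search hit of one motif was set against another, and overlaps between them were not removed. Upstream sequences are shown for Cycs and Sdha, whose levels are compared between genotypes below, and for Ndufa4 and Cox6b2, which varied strongly between cell classes. Each ends before the first annotated base of its gene, and all are read from the minus strand. Capitals mark a match to the nuclear respiratory factor 1 motif or, in Cycs alone, also to the CREB motif. The Cycs sequence is chr6:50566570-50566819, the Sdha sequence chr13:74350281-74350490, the Ndufa4 sequence chr6:11907498-11907700 and the Cox6b2 sequence chr7:4753095-4753344.
Cycs: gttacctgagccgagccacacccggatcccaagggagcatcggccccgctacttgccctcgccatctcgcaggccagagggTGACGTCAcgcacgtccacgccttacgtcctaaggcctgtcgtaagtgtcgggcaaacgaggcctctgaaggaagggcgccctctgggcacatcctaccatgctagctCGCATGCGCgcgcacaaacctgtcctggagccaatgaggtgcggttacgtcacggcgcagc
Sdha: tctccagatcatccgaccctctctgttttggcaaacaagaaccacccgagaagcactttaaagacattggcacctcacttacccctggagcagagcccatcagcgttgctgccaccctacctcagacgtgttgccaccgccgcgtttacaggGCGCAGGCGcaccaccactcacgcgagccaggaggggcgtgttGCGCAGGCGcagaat
Ndufa4: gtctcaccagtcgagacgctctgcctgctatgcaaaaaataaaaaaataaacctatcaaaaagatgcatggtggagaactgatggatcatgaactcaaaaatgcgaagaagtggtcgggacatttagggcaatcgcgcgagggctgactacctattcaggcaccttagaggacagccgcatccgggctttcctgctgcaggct
Cox6b2: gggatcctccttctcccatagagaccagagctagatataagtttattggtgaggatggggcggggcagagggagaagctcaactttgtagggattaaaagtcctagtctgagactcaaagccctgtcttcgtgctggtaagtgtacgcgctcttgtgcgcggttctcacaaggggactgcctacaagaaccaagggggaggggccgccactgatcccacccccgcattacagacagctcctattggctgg
The Cycs sequence held 1 match to each of these motifs and the Sdha sequence 2 matches to the nuclear respiratory factor 1 motif. The stretches of Ndufa4 and Cox6b2 held no match to any of the 4 motifs. A match is a description of letters and not a mapped binding site.

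After filters (500 or more genes per barcode, no more than 10% of UMIs mitochondrial, doublets removed), 3616 control and 937 KO cells were kept, with 30328767 and 9512649 UMIs. The members took 452639 and 142403 of these UMIs, or 1.492% and 1.497%. Clustering on other genes gave 24 clusters, of which 16 were named from marker genes and merged into 13 classes, each called "-like" after its markers. Cells without a name made up 13.99% of the control and 20.4% of the KO library. Fibroblast, mesothelial, vascular and immune markers of the SVF were found, while the 7 adipocyte markers summed to between 2.64 and 68.4 CPM in the control classes. CPM is the UMI count of a gene divided by all UMIs of the class and library and multiplied by 1e6. The libraries differed in depth and handling genes. The median UMIs per cell were 12309 and 17882 in control and KO fibroblast-like cells, and 4376 and 6130.5 in T cell-like cells. Over all kept cells, haemoglobin took 0.745% of control and 0.196% of KO UMIs, and 10 genes known to respond to tissue dissociation summed to 3177 and 4521 CPM. Pgam1, the targeted gene, was at 110 CPM in control and 117 CPM in KO cells. Within classes it was 108 and 105 CPM in fibroblast-like, 141 and 201 CPM in macrophage-like, 59.3 and 24.3 CPM in T cell-like (52 and 14 UMIs) and 46.8 and 38.0 CPM in ILC2-like cells. Pgam1 was thus not lower throughout the KO library. In a fibroblast cluster rich in adipocyte markers, the paper reports markedly lower Pgam1 in KO and proposes that Cre acted there. Here Pgam1 was not split by fibroblast cluster, so such a group of cells could not be seen in these values.

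The summed level of the members differed more between cell classes than between the libraries. In the control library it was highest in smooth muscle-like cells at 19707 CPM (19396 to 20022) and lowest in fibroblast-like cells at 12258 CPM (12188 to 12328), with B cell-like cells next at 12442 CPM (12171 to 12718). The last 2 intervals overlapped. Mesothelial-like cells followed smooth muscle-like cells with 16757 CPM (16544 to 16973), and macrophage-like cells with 16552 CPM (16452 to 16652), which also overlapped. Dendritic-like cells held 16019 CPM. Pericyte-like cells held 15470 CPM, NK cell-like cells 15460 CPM and monocyte-like cells 15378 CPM, 3 values whose intervals overlapped. Endothelial-like, ILC2-like, lymphatic endothelial-like and T cell-like cells held 14841, 14448, 14231 and 14030 CPM. CPM are shares of a class's own UMIs, so a class rich in other transcripts holds fewer member CPM, and fewer molecules per cell cannot be told apart from more of the rest.

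The classes also differed in how the total was divided. Complex I took 33.0% of the member UMIs in mesothelial-like and 32.6% in fibroblast-like control cells, against 26.9% in monocyte-like and 27.1% in NK cell-like cells. Complex V ran the other way, with 31.6% in NK cell-like cells and 31.0% in T cell-like, ILC2-like, dendritic-like and B cell-like cells, against 25.4% in pericyte-like and 26.3% in mesothelial-like cells. Complex IV took between 25.1% in fibroblast-like and 30.9% in pericyte-like cells. Complex II, the smallest complex, took 1.95% to 2.75%, and complex III 10.3% to 12.1%.

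**Figure D1:**
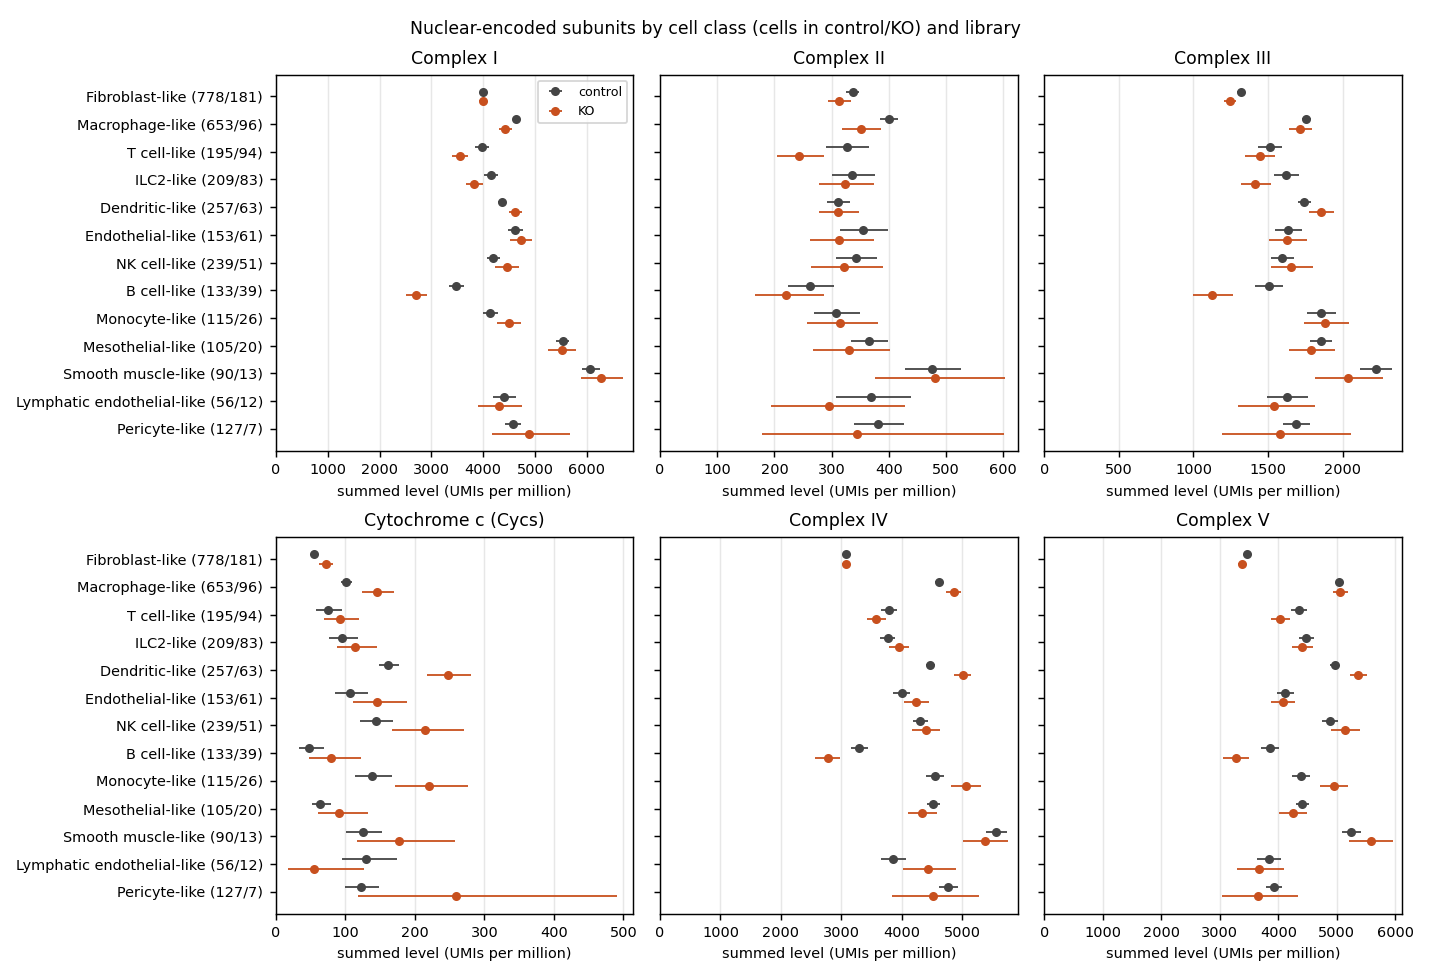
Summed level of the members of each complex in CPM (scaled to the total UMIs of the class), by cell class (rows, with the number of control and KO cells) and library (black control, orange KO). Points are the values and bars their exact Poisson 95% intervals. Smooth muscle-like cells lie highest for complexes I to V in the control library, with complex I at 6070 CPM. Gaps between the libraries include B cell-like cells, where complexes I, III, IV and V lie lower in KO, and Cycs. They also include T cell-like cells, lower in KO for complexes I (3976 and 3549 CPM) and II (326 and 243 CPM). Dendritic-like and monocyte-like cells lie higher in KO for complexes IV and V.

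Within complex I, single subunits differed more between classes than the sum did. Among the 80 members with at least 200 control UMIs, the highest class CPM was a median of 2.27 times the lowest for the 35 members of complex I. The member with the widest range was Ndufa5, a subunit of the arm that faces the matrix, with 213 CPM in smooth muscle-like and 39.6 CPM in monocyte-like control cells, a ratio of 5.38. Its KO levels in these classes were 302 and 21.4 CPM, so the order was the same in both libraries. Ndufa2, the member of complex I with the most UMIs (7866 in the control), ranged less, from 221 CPM in B cell-like to 346 CPM in smooth muscle-like cells. Further patterns were singled out after their values were seen. Ndufa8 was at 260 and Ndufc2 at 291 CPM in endothelial-like control cells, and at 267 and 341 CPM in those of the KO library. Across the other control classes Ndufa8 had 57.7 to 116 CPM and Ndufc2 80.5 to 191 CPM. Ndufa6 was at 453 and 427 CPM in dendritic-like cells, its highest control class, and at 145 and 164 CPM in fibroblast-like cells, its lowest control class. In the KO library it was lower in lymphatic endothelial-like cells, with 131 CPM from 12 UMIs.

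The 4 genes of complex II, which is also the succinate dehydrogenase of the tricarboxylic acid cycle, behaved differently from each other. Sdha, the flavoprotein that oxidises succinate, was the most even, from 119 CPM in dendritic-like to 167 CPM in lymphatic endothelial-like control cells, a ratio of 1.41. Sdhb, the iron-sulphur subunit, ranged from 46.8 CPM in B cell-like to 110 CPM in smooth muscle-like cells. Of the membrane anchors, Sdhd was highest in macrophage-like cells at 89.9 CPM and lowest in B cell-like cells at 35.9 CPM. Sdhc was at 151 CPM in smooth muscle-like control cells and 178 CPM in those of the KO library, against 46.1 to 85.1 CPM in the other control classes.

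In complex III, Uqcrh, the hinge protein that helps cytochrome c dock, had the most UMIs (13759 in the control). It was above 600 CPM in T cell-like, ILC2-like, NK cell-like, B cell-like and monocyte-like control cells and at 328 CPM in fibroblast-like cells. Uqcr11 had the widest range of the complex, from 121 CPM in T cell-like to 428 CPM in smooth muscle-like cells. Cyc1, the cytochrome c1 of this complex, ranged from 47.0 CPM in mesothelial-like to 90.3 CPM in smooth muscle-like cells. Cycs, the soluble carrier that takes electrons from Cyc1, had its own order. It was at 162 CPM in dendritic-like, 144 CPM in NK cell-like and 139 CPM in monocyte-like cells, whose intervals overlapped. The low end was held by mesothelial-like (64.1 CPM), fibroblast-like (55.1 CPM) and B cell-like cells (48.4 CPM), with intervals that also overlapped.

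The widest differences between classes were found in complex IV, in isoforms carried by mural cells. Each molecule gave 1 tag at its 3′ end, so levels of isoforms were compared without division by length. Cox4i2 (GRCm38 chromosome 2, 152754173 to 152765037) is the isoform of subunit 4 known from lung and vascular cells and from responses to low oxygen, whereas Cox4i1 is the general form. In pericyte-like control cells Cox4i2 was at 496 CPM (448 to 548) beside 521 CPM of Cox4i1, 48.8% of the pair's UMIs (45.3 to 52.3). In those of the KO library, which held 7 cells and 10 UMIs, it was at 287 CPM, 41.7% (22.1 to 63.4). Smooth muscle-like cells held 117 and 118 CPM, 13.1% and 16.4% of the pair. In the other 11 control classes the share was at most 0.613%. A Cox4i2 UMI was found in 81.9% of the pericyte-like control cells (median 6037 UMIs per cell). It was found in 1 of 195 T cell-like cells and in 0 of 239 NK cell-like cells, which had median depths of 4376 and 4136 and whose UMIs of this gene mark the level of free RNA. Both isoforms were found together in 95 of the 127 pericyte-like and 45 of the 90 smooth muscle-like control cells.

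Ndufa4 and its paralogue Ndufa4l2 exchanged more completely. Ndufa4l2 (chromosome 10, 127514967 to 127517154) is known as a target of hypoxia-inducible factor. In pericyte-like cells it was at 881 CPM (817 to 949) among control and 920 CPM (629 to 1298) among KO cells, 97.5% and 97.0% of the pair's UMIs. Ndufa4 (chromosome 6, 11900292 to 11907497) was at 22.9 CPM there, from 18 UMIs, the lowest of any control class, and at 474 CPM in mesothelial-like cells, the highest. Smooth muscle-like cells lay between, with 401 and 355 CPM of Ndufa4l2, 65.5% and 62.8% of the pair. Ndufa4l2 had no UMI in the 115 monocyte-like control cells, so its level in pericyte-like cells was at least 223-fold higher, taken against a limit of 3 UMIs over that class. The clusters were built without the members, but these isoforms were among the 10 genes that set pericyte-like cells apart, so their levels describe that class and no test was made.

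Fibroblast-like cells held a low level of Ndufa4l2. It was 14.4 CPM in control and 21.3 CPM in KO cells, 3.97% (3.34 to 4.67) and 6.69% (5.19 to 8.47) of the pair. Of 778 control cells 94 held a UMI, and of 181 KO cells 36, or 12.1% and 19.9%, against 2.21% and 4.47% when each cell was thinned to 2000 UMIs. The share of T cell-like control cells with a UMI was 0.513%, and 0 after thinning. In the same fibroblast-like cells the 8 pericyte markers summed to 387 and 532 CPM. Their part in the difference was not tested. Endothelial-like control cells had 3.30% of the pair from Ndufa4l2, but its 10 UMIs came from 3 cells.

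**Figure D2:**
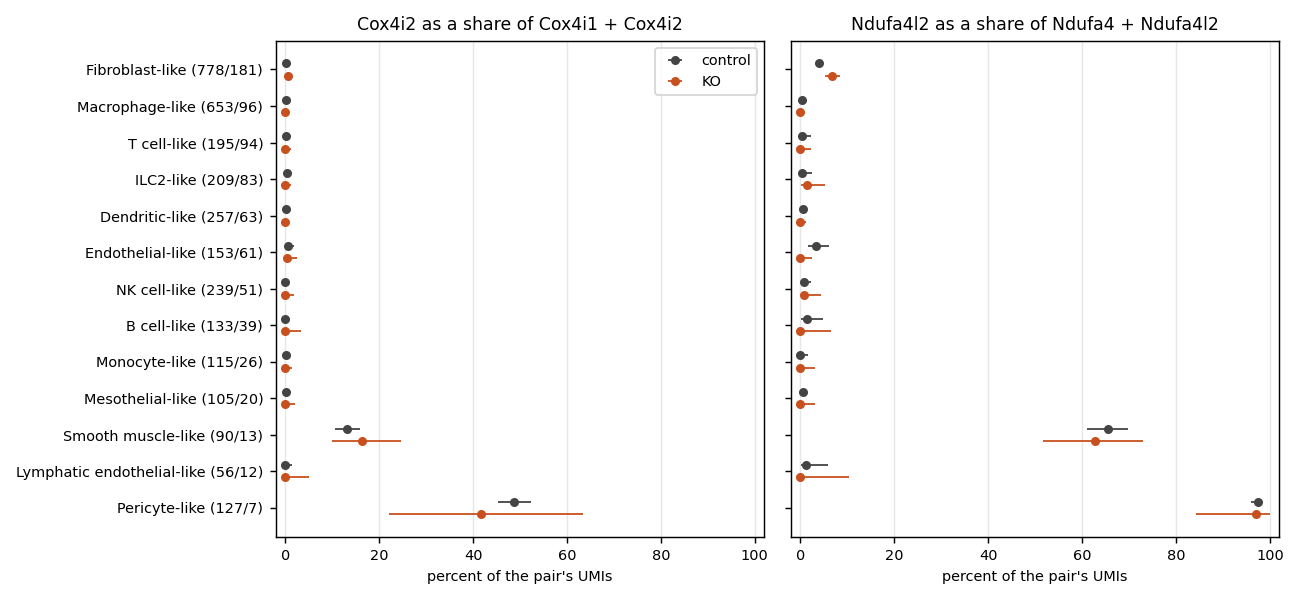
Share of Cox4i2 among Cox4i1 and Cox4i2 UMIs (left) and of Ndufa4l2 among Ndufa4 and Ndufa4l2 UMIs (right), in percent, by cell class (with the number of control and KO cells) and library (black control, orange KO). Bars are Clopper-Pearson 95% intervals. Pericyte-like cells reach 48.8% and 97.5% in the control, smooth muscle-like cells 13.1% and 65.5%, and the other classes lie near 0, with fibroblast-like cells at 3.97% and 6.69% for Ndufa4l2.

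Of the other isoforms, Cox6b2, known for its expression in testis, was at 96.9 CPM (81.3 to 115) in mesothelial-like control cells, 23.1% of the UMIs of Cox6b1 and Cox6b2, and at 50.5 CPM (28.3 to 83.3) in those of the KO library, 12.6%. It was at 44.6 and 27.1 CPM in dendritic-like cells. As singled out after its values were seen, the dendritic-like UMIs came mostly from the cluster led by Ccl22 and Cd209a, with 58.2 and 48.4 CPM. The cluster led by Xcr1 and Clec9a held 12.7 and 2.17 CPM (12 UMIs and 1 UMI). In T cell-like control cells Cox6b2 was at 3.42 CPM, from 3 UMIs. Cox7a1, the isoform of heart and skeletal muscle, was at 19.2 and 20.2 CPM in mesothelial-like cells, from 27 and 6 UMIs, and at 6.97 and 6.98 CPM in macrophage-like cells. The muscle isoforms Cox6a2 and Cox8b were close to absent at this depth, with 15 and 1 UMIs and 9 and 7 UMIs over all kept cells. Among the general subunits, Cox4i1 had the most UMIs of all members (19552 in the control), from 458 CPM in fibroblast-like to 911 CPM in monocyte-like cells.

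In complex V most members were even, with a median ratio of 1.99 between the highest and lowest control class over the 16 members with at least 200 control UMIs. Atp5e, the small epsilon subunit of the central stalk, had the most UMIs (16801) and ranged from 314 CPM in pericyte-like to 731 CPM in dendritic-like cells. The genes Atp5g1, Atp5g2 and Atp5g3 encode the same mature c subunit of the rotor ring with different import sequences, and their mix shifted between classes. In dendritic-like control cells they were at 163, 515 and 197 CPM, in B cell-like cells at 101, 487 and 137 CPM and in pericyte-like cells at 171, 221 and 347 CPM. Atp5g3 led in pericyte-like and smooth muscle-like control cells (156, 276 and 335 CPM in the latter). Atp5g2 led in every other control class, immune or not, such as mesothelial-like cells with 589 UMIs beside 311 of Atp5g3. In fibroblast-like cells Atp5g2 and Atp5g3 were close, at 220 and 203 CPM. The widest range was that of Atp5sl, which its symbol placed here although it is not a core subunit. It ran from 4.68 CPM in fibroblast-like to 46.8 CPM in B cell-like cells, a ratio of 9.99. Next came Atp5j, from 147 CPM in B cell-like to 413 CPM in endothelial-like cells, a ratio of 2.82.

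**Figure D3:**
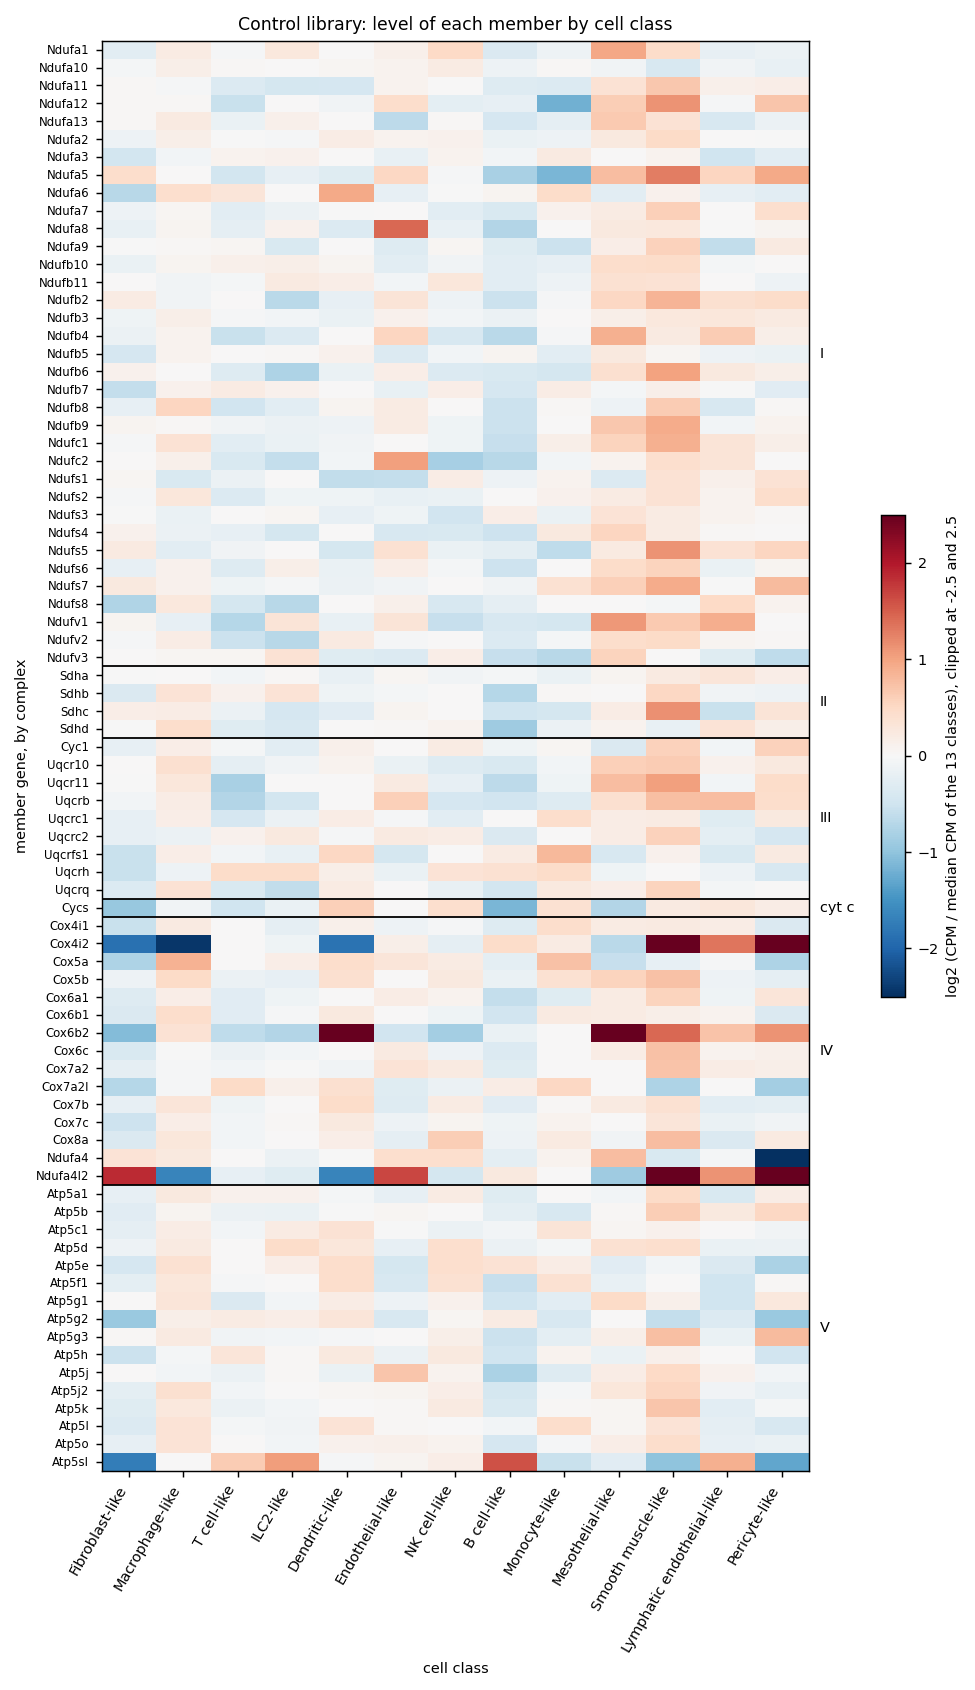
Level of each of the 80 members with at least 200 control UMIs in the control library, as the log2 ratio of its CPM in a class (columns) to its median over the 13 classes, with members grouped by complex (rows, labels at the right). Levels under 3 UMIs over a class were set to 3 UMIs. Most cells of the map are pale, and strong ones include Cox4i2 and Ndufa4l2 in pericyte-like and smooth muscle-like cells, Ndufa4 in pericyte-like cells and Cox6b2 in dendritic-like and mesothelial-like cells. The scale is clipped at -2.5 and 2.5.

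The KO library was compared with the control library class by class. Over all kept cells the summed level was 14924 CPM for control and 14970 CPM for KO, a log2 ratio of 0.004 (-0.004 to 0.013). In the 4 named classes with the most KO cells it was 12258 and 12087 CPM in fibroblast-like cells, a log2 ratio of -0.020 (-0.037 to -0.003). It was 16552 and 16564 CPM in macrophage-like cells, a log2 ratio of 0.001 (-0.021 to 0.023). In T cell-like cells it was 14030 and 12941 CPM, -0.117 (-0.158 to -0.075), and in ILC2-like cells 14448 and 14045 CPM, -0.041 (-0.081 to -0.0004). In every one of the 4 classes the value moved past its counting interval with another scaling or grouping, between -0.12 and 0.10 over the 4 classes, so no direction is given for them.

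The sum hid a mix of cells in some classes. Macrophage-like cells were made of a cluster led by Folr2 and Pf4 (360 control and 33 KO cells) and a cluster led by Lyz1 and Mmp12 (293 and 63 cells). The members were at 12965 and 12554 CPM in the former and at 18864 and 17971 CPM in the latter. The log2 ratios were -0.047 (-0.096 to 0.002) and -0.070 (-0.095 to -0.045), while the class as a whole stood at 0.001. The first interval held 0. Scaling by the trimmed mean of M-values moved the ratio of the class up by 0.085, more than either value, so no direction is given for these clusters. Fibroblast-like cells were made of a cluster led by Inmt and Bmper, at 12217 and 12164 CPM, and a cluster led by Cilp and Pi16, at 12361 and 11918 CPM, with log2 ratios of -0.006 (-0.027 to 0.014) and -0.053 (-0.084 to -0.022). The ILC2-like class also held cells with UMIs of T cell genes, where 1 UMI was enough to count a cell. The median UMIs per cell of this class were 4394 in control and 6853 in KO. Cells with a UMI of a Cd3 gene, Trac or Foxp3 (74 control and 47 KO) had a log2 ratio of 0.004 (-0.053 to 0.062), and those without (135 and 36) one of -0.116 (-0.175 to -0.056).

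Outside these 4 classes, members were higher in KO in dendritic-like cells, with 16019 and 17421 CPM and a log2 ratio of 0.121 (0.096 to 0.146). The cluster led by Ccl22 and Cd209a gave 185 control and 37 KO cells of that class. The cluster led by Xcr1 and Clec9a gave 72 and 26, and the ratio was not split by cluster. Monocyte-like cells (115 and 26) had 15378 and 16920 CPM, 0.138 (0.091 to 0.184), and NK cell-like cells 15460 and 16189 CPM, 0.07 (0.02 to 0.11). The sums of dendritic-like, monocyte-like and NK cell-like cells were not computed under other filters, scalings or groupings. Their directions were thus checked less than those of the 4 classes above, with only the thinned medians below beside them. The widest gap was the lower level in B cell-like cells (133 and 39), with 12442 and 10173 CPM and a log2 ratio of -0.29 (-0.36 to -0.23). Immunoglobulin transcripts took 3.24% of the UMIs in control and 8.37% in KO B cell-like cells, and the log2 ratio was -0.212 (-0.277 to -0.148) with these genes left out of the total. It was -0.17 with cells thinned to 2000 UMIs, and -0.40 under a stricter cell filter. These were the ends of the range over the alternatives run for this class. The stricter filter left 2 control cells and 1 KO cell, too few to read the -0.40 as a check. Per thinned cell, the members took a median of 1.15% of UMIs in control and 1.1% in KO B cell-like cells. The same medians were 1.55% and 1.6% in dendritic-like, 1.425% and 1.625% in monocyte-like and 1.55% and 1.55% in NK cell-like cells, so the NK cell-like gap was not seen per cell at equal depth. In endothelial-like, mesothelial-like, smooth muscle-like, lymphatic endothelial-like and pericyte-like cells the interval of the log2 ratio held 0.

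By complex, the ratios in macrophage-like and ILC2-like cells lay on both sides of 0. In macrophage-like cells complex I was at 4642 and 4429 CPM, a log2 ratio of -0.068 (-0.111 to -0.025), and complex II at 400 and 351 CPM, -0.188 (-0.344 to -0.036). Complex IV was at 4613 and 4860 CPM, 0.075 (0.034 to 0.117). These values pool the macrophage-like clusters, which held 360 and 293 control cells but 33 and 63 KO cells. They were not split by cluster, so a difference in mix cannot be told apart from a difference within clusters. In T cell-like cells the ratios of complexes I to V were all below 0. Complex I was at 3976 and 3549 CPM there, -0.164 (-0.243 to -0.085). Complex II was at 326 and 243 CPM, -0.426 (-0.728 to -0.129), from 286 and 140 UMIs. In ILC2-like cells complex III was at 1621 and 1416 CPM, -0.196 (-0.322 to -0.071). Complex IV was at 3769 and 3950 CPM there, 0.068 (-0.010 to 0.145). In fibroblast-like cells complex I was at 4001 and 3999 CPM and complex IV at 3076 and 3074 CPM, whereas complex III was at 1315 and 1245 CPM, -0.079 (-0.132 to -0.026).

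Few members passed 1.5-fold, the size used here in place of a test for genes with at least 50 UMIs over both libraries. Of the 79 members measured in fibroblast-like cells, 0 were that much higher and 0 lower, where 3.8% and 7.83% of all 10542 genes were. Of the 78 in macrophage-like cells, 0 and 0 passed, against 4.82% and 14.8% of 8813 genes. Of the 75 in T cell-like cells, 0 were higher and 1 (Sdhc) lower, against 4.89% and 10.3% of 4113 genes. Of the 76 in ILC2-like cells, 2 (Ndufb2 and Ndufv2) were higher and 3 (Ndufb10, Ndufs1 and Ndufc1) lower, against 5.33% and 11.8% of 4580 genes. Members are counted more deeply than most genes, and large ratios are rarer at high counts. The median log2 ratio of the members was -0.006, 0.003, -0.108 and -0.036 in the 4 classes, beside -0.104, -0.108, -0.072 and -0.097 over all genes measured.

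**Figure D4:**
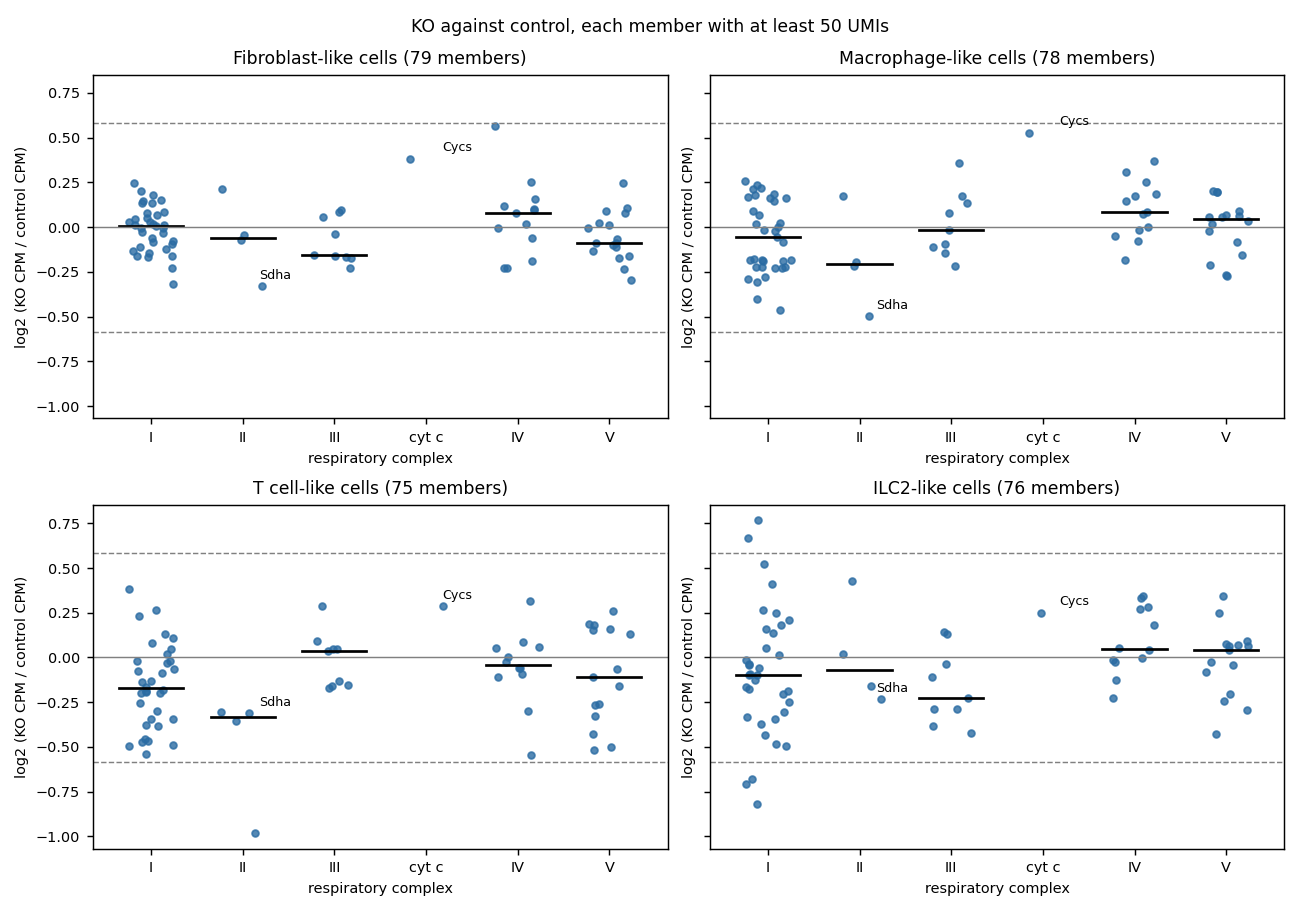
Log2 ratio of KO to control CPM of each member with at least 50 UMIs over both libraries (points), grouped by complex, in the 4 classes with the most KO cells. Black bars are medians of a complex and dashed lines mark 1.5-fold. The points of fibroblast-like and macrophage-like cells lie within the dashed lines, and points spread more widely in T cell-like and ILC2-like cells, where fewer UMIs were counted.

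In fibroblast-like cells the largest higher values were Ndufa4l2, given above (log2 ratio 0.57, 0.12 to 1.01), Cycs, with 55.1 and 71.8 CPM (0.38, 0.15 to 0.61), and Cox5b, with 179 and 213 CPM (0.25, 0.12 to 0.38). The largest lower values were Sdha, with 135 and 108 CPM (-0.33, -0.51 to -0.15), the complex I subunit Ndufc2, with 145 and 116 CPM (-0.32), and Atp5g2, with 220 and 180 CPM (-0.29). In macrophage-like cells Cycs was at 101 and 146 CPM (0.53, 0.27 to 0.78), the complex IV subunit Cox7b at 216 and 280 CPM (0.37) and Cyc1 at 67.3 and 86.4 CPM (0.36). On the lower side Sdha was at 135 and 96.0 CPM (-0.50, -0.80 to -0.21), Ndufv3 at 142 and 103 CPM (-0.46) and Ndufs8, an iron-sulphur subunit of complex I, at 83.1 and 62.8 CPM (-0.40). The macrophage-like values again pool clusters whose mix differed between the libraries.

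In the lymphoid classes the counts were smaller. In T cell-like cells Sdhc had 54 and 18 UMIs (61.6 and 31.2 CPM, -0.98, -1.84 to -0.19), Cox6a1 was at 263 and 180 CPM (-0.55, -0.89 to -0.21) and the interval of Ndufa12 (-0.54) held 0. The 3 largest higher values there, Ndufs4 (0.38), Cox7b (0.32) and Uqcrc1 (0.29), all had intervals that held 0. In ILC2-like cells Ndufb10, a subunit of the membrane arm of complex I, was at 166 and 94.0 CPM (-0.82, -1.30 to -0.36), Ndufc1 at 116 and 72.3 CPM (-0.68, -1.24 to -0.15) and Ndufs1 at 53.2 and 32.5 CPM (-0.71, -1.57 to 0.09). Ndufb2 was at 52.1 and 88.6 CPM (0.77, 0.16 to 1.37), Ndufv2 at 48.9 and 77.7 CPM (0.67, 0.03 to 1.30) and Ndufs4 at 47.8 and 68.7 CPM (0.52, -0.14 to 1.18).

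Cycs and Sdha stood on opposite sides of their control level in most classes. Over all kept cells Cycs was at 93.3 CPM (89.9 to 96.8) for control and 132 CPM (124 to 139) for KO, a log2 ratio of 0.50 (0.40 to 0.59). It was higher in KO in 12 of 13 classes, such as dendritic-like cells with 162 and 248 CPM, NK cell-like cells with 144 and 215 CPM and monocyte-like cells with 139 and 220 CPM. The exception was lymphatic endothelial-like cells, with 45 and 5 UMIs. Sdha was at 136 CPM (132 to 140) and 111 CPM (104 to 118), a log2 ratio of -0.30 (-0.40 to -0.20), and lower in KO in 13 of 13 classes. The counting interval of the ratio lay on that side of 0 in 5 classes for Cycs and in 3 for Sdha. With cells thinned to 2000 UMIs the Cycs log2 ratio was 0.20, 0.84, 0.003 and 0.17 in fibroblast-like, macrophage-like, T cell-like and ILC2-like cells. That of Sdha was -0.43, -0.41, -0.62 and 0.03, so its direction did not hold in ILC2-like cells. The dissociation response genes had a median log2 ratio of 0.58 in fibroblast-like, 0.26 in macrophage-like, 0.29 in T cell-like and 0.47 in ILC2-like cells, the direction of Cycs. In dendritic-like cells, where Cycs was higher in KO, their sum was lower, at 3982 and 3277 CPM. In lymphatic endothelial-like cells, where Cycs was lower, their sum was higher, at 2511 and 6244 CPM. Their part in the Cycs difference was not tested.

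A shared direction was not particular to the members. Of the 65 members with at least 50 UMIs in each of the 11 classes with at least 13 KO cells, 2 (Cycs and Atp5d) were higher in KO in every class, or 3.08%, and 3 (Sdha, Cox4i1 and Uqcrh) lower, or 4.62%. Of all 1509 genes measured as deeply, 1.86% were higher and 4.71% lower in every class, or 2.98% and 2.65% with trimmed mean of M-values (TMM) scaling, under which the same numbers of members, 2 and 3, were counted. These counts are small and close to those of all genes. Atp5d, the delta subunit of the central stalk, was at 194 and 224 CPM over all kept cells, Cox4i1 at 645 and 558 CPM and Uqcrh at 454 and 417 CPM. When each cell was thinned to 2000 UMIs, 0 members were higher and 0 lower in every class, beside 1.19% and 0.663% of all genes.

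**Figure D5:**
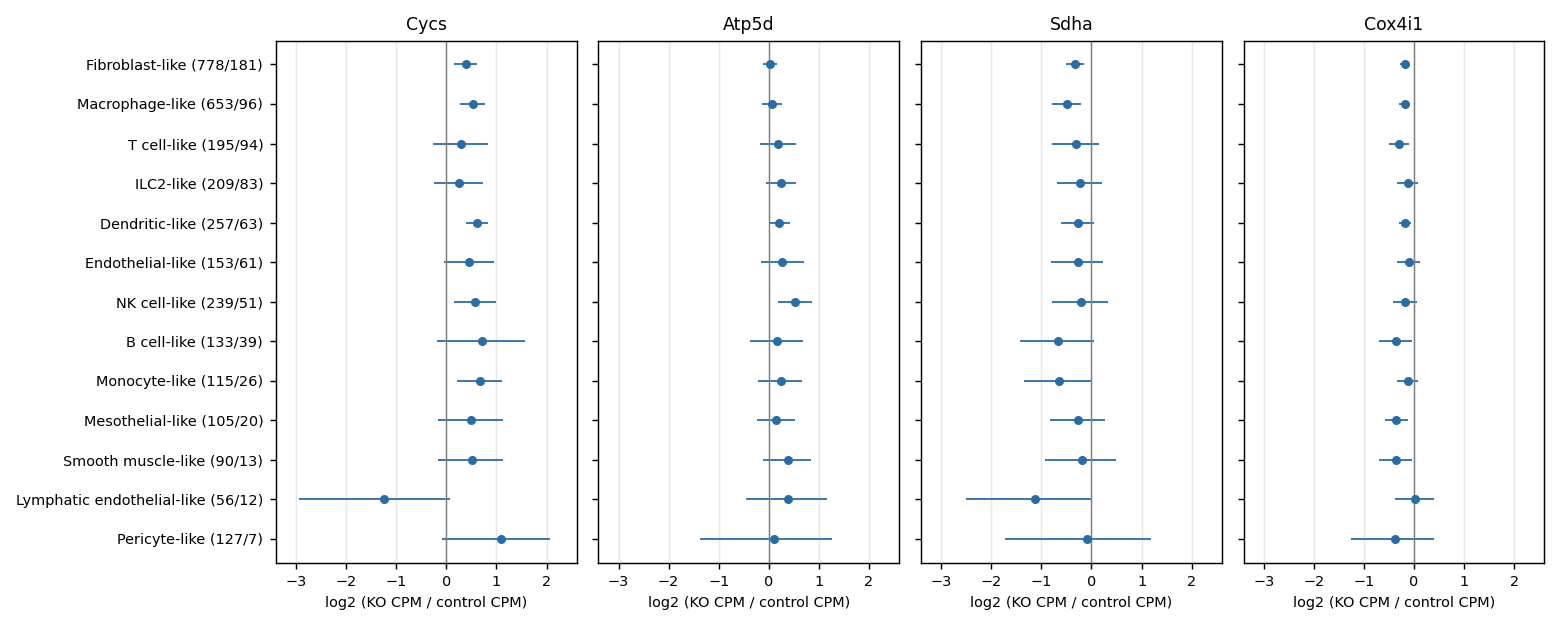
Log2 ratio of KO to control CPM of Cycs, Atp5d, Sdha and Cox4i1 in each cell class (rows, with the number of control and KO cells), with exact conditional 95% intervals. Cycs lies right of 0 in 12 of 13 classes and Sdha left of 0 in 13 of 13, while the intervals of the classes with few KO cells are wide and mostly hold 0.

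Over all kept cells, 0 of 82 members were at least 1.5-fold higher and 2 lower in KO, where 6.73% and 6.81% of 13552 genes were. The 2 were Cox4i2, with 16.8 and 4.10 CPM (log2 ratio -2.03, -2.54 to -1.56), and Ndufa4l2, with 39.2 and 17.3 CPM (-1.18, -1.42 to -0.94). Both are genes of pericyte-like cells, which numbered 127 of 3616 control and 7 of 937 KO cells. Within that class the log2 ratio was -0.79 (-1.86 to 0.11) for Cox4i2 and 0.06 (-0.50 to 0.57) for Ndufa4l2.

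The other genes of the pathway were read from lists. The 13 subunits encoded in mitochondrial DNA had a median log2 ratio of -0.08 in fibroblast-like, -0.22 in macrophage-like, -0.18 in T cell-like and -0.08 in ILC2-like cells. In macrophage-like cells 13 of 13 were below 0, from -0.50 (mt-Nd4l) to -0.05, and their sum was 47768 and 41989 CPM. The median of all 8813 genes measured in that class was also below 0, at -0.108, and the share of genes below 0 was not counted. The mix of macrophage-like clusters differed between the libraries, and the mitochondrially encoded genes were not split by cluster. Cells were filtered on the mitochondrial share, which bounds this measure. In fibroblast-like cells 6 were above and 7 below 0, and the sums were 39656 and 39696 CPM. Of the assembly factors, which build the complexes without staying in them, 44 of 46 were measured in fibroblast-like cells, 0 of them at least 1.5-fold higher and 4 lower (median -0.13), and 39 in macrophage-like cells, 3 higher and 11 lower (median -0.21). Over all genes the shares past this fold were 3.8% and 7.83% in fibroblast-like and 4.82% and 14.8% in macrophage-like cells, with the medians of -0.104 and -0.108 given above. The 13 genes of the tricarboxylic acid cycle had medians of -0.19 and -0.12 in these classes, with 0 past 1.5-fold in either direction. Regulators of mitochondrial biogenesis, such as Nrf1, Gabpa and Tfam, had medians of 0.10 (8 of 10 measured) and -0.20 (9 of 10). The 77 mitochondrial ribosomal genes had medians of -0.09 and -0.07 (76 measured in each). Cytosolic ribosomal genes stood above 0, at 0.13 in fibroblast-like, 0.03 in macrophage-like, 0.11 in T cell-like and 0.07 in ILC2-like cells. In T cell-like and ILC2-like cells the medians were -0.18 and -0.05 for assembly factors, -0.33 and -0.20 for the tricarboxylic acid cycle, -0.20 and -0.22 for the regulators and 0.06 and -0.10 for the mitochondrial ribosome. These rest on fewer genes, with 12 and 16 assembly factors, 8 and 9 genes of the tricarboxylic acid cycle, 4 and 4 regulators and 36 and 42 mitochondrial ribosomal genes measured. The summed regulators in T cell-like cells stood on the other side of their median, at 357 and 368 CPM.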

How the data were processed

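Single-cell RNA-seq libraries of the gWAT SVF (1 control, 1 KO) were made with the 10x Chromium 3′ v3 chemistry. The authors deposited counts: unnormalized UMIs per gene and barcode from Cell Ranger 3.0.1 on mm10, with Seurat 3.1.5 and R 4.0.1 also named in the submitters' processing notes. Reads that map to several annotated genes are not counted by this tool. Members with near-identical processed copies, such as Uqcrh and Cycs, may therefore be undercounted where such copies are annotated. The deposited tables held 8522 and 2730 barcodes, of which 3881 and 958 passed the filters, and 265 and 21 were removed as doublets (Scrublet, 0.8% per 1000 barcodes). The libraries shared 9 barcodes, 0 of them among kept cells.

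Cells were clustered with scanpy 1.11.5 (2000 variable genes without the members and mitochondrial genes, 30 principal components, 20 neighbours, Leiden resolution 0.5, leidenalg 0.10.2, Python 3.11.15). A cluster was named where its marker z-score exceeded 0.5, led the next by 0.5 and at least 3 markers were found in 10% of its cells. A related class, such as monocyte beside macrophage, was not taken as the next. Clusters whose 10 leading genes held more markers of another class than of their own or a related class stayed unnamed. A further cluster scoring highest for smooth muscle (83 control and 21 KO cells) was left unnamed, as its 10 leading genes held 1 such marker. UMIs were summed per class and library and divided by the class total (CPM). Intervals are 95% exact Poisson for levels, exact conditional binomial for ratios and Clopper-Pearson for shares, and UMI counts under 3 were set to 3 when calling 1.5-fold. There was no test across samples. TMM factors came from edgeR 4.0.16 (R 4.3.3), used for scaling alone. Calculations were tested on simulated data.

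Named genes were the isoform pairs, Atp5g1 to Atp5g3, the Sdh genes, Cycs, Cyc1 and Pgam1. Added to these were, per complex, the member with the most UMIs and that with the widest class range among members with 200 control UMIs, and the 3 largest higher and 3 largest lower ratios in each of the 4 classes with the most KO cells (at least 50 UMIs). Exceptions are marked where they occur, and Atp5d, Cox4i1 and Uqcrh were named for a shared direction after their values were seen. The members and lists were chosen with earlier results of these data known. Alternatives were other cell filters, resolution, scaling, thinning to 2000 UMIs, UMI minimums, folds and the assignment of Ndufa4.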

Additional observations from a re-analysis of the deposited data

How the results depend on the processing

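No paired analysis was possible because there was 1 library per genotype, and no replicate could be left out. The log2 ratio of summed member UMIs ran from -0.03 to 0.06 over 9 alternatives in fibroblast-like, from -0.06 to 0.10 over 10 in macrophage-like, from -0.12 to 0.04 over 9 in T cell-like and from -0.12 to 0.08 over 10 in ILC2-like cells. With TMM, which moved the median of all genes by 0.08, 0.09, 0.09 and 0.12, it was 0.057, 0.086, -0.027 and 0.076 in these classes. In macrophage-like cells it was 0.082 at resolution 1.0, 0.099 as the mean over cells, 0.075 in thinned cells and, chosen after seeing the data, -0.058 with both clusters weighted equally. In T cell-like cells it was 0.038 under a stricter cell filter of 1000 genes and 5% mitochondrial UMIs (17 and 13 cells), and -0.070 without mitochondrial, ribosomal and haemoglobin UMIs. In ILC2-like cells it was -0.116 without cells holding a Cd3, Trac or Foxp3 UMI, also chosen after seeing the data. The cause was not tested.

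Under the stricter cell filter the summed levels in control and KO were 12383 and 12284 CPM (fibroblast-like), 17440 and 17249 CPM (macrophage-like), 15353 and 15766 CPM (T cell-like) and 14764 and 14566 CPM (ILC2-like). Counting Ndufa4 and Ndufa4l2 with complex I gave 4364 and 4317, 4968 and 4743, 4253 and 3835, and 4395 and 4077 CPM of complex I in these classes.

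When a gap of 25% of the lower level was enough, 2 members were higher and 1 lower in fibroblast-like, 3 and 3 in macrophage-like, 1 and 17 in T cell-like and 8 and 12 in ILC2-like cells. With a minimum of 20 UMIs, 1 was higher in fibroblast-like, 1 higher and 1 lower in macrophage-like and 1 higher in T cell-like cells. With a minimum of 200 UMIs, 0 were lower in T cell-like cells, and 0 were higher and 1 lower in ILC2-like cells. With TMM, 1 was higher in fibroblast-like and 1 in macrophage-like cells. The shares over all genes were not counted at these settings, so these counts are not read as a shift of the members. In thinned cells, smooth muscle-like cells had 17.2% (control) and 0% (KO) Cox4i2 and 44.4% (KO) Ndufa4l2, and pericyte-like cells 99.1% and 100% Ndufa4l2. KO classes with under 20 cells limit what these data can show.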
